A study of Arabidopsis thaliana with 6 samples.

Results

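The nuclear genome of Arabidopsis thaliana holds a small number of annotated genes whose small RNAs in pollen are rich in the 24-nt length typical of transposons. They were chosen from the reads themselves. Every nuclear gene listed under a single ID was kept if its reads of 18 to 28 nt, summed over all 6 libraries, came to at least 100 and if at least 40% of them were 24 nt long. This took 60 of 28395 nuclear genes, or 60 of the 4121 with enough reads. The 24-nt share and the read total are therefore descriptions of the choice and not results. A further 1931 genes reached the share on fewer than 100 reads and were not taken.

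The libraries were made from sorted pollen of accession Col and selected for short inserts. The paps1-3 libraries (numbers 16, 20 and 26) came from mutant grains, paps1-3 being an allele of the poly(A) polymerase gene PAPS1, and the wild-type (WT) libraries (15, 19 and 25) from wild-type grains. Both genotypes of an isolation were sorted out of a shared sample, in 3 isolations, so genotype and sort gate are the same split. The labels do not tie the isolations to separate plants or give plant age, and the p-values below reflect only how much these samples varied, which may be technical. The paps1-3 libraries held 7916557, 5562287 and 9922763 counted reads, and the WT libraries 10139424, 9757853 and 9312167. The title of the series links the polymerase to RNA-directed DNA methylation.

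In that pathway, plant RNA polymerase IV and the RNA-dependent RNA polymerase RDR2 make double-stranded RNA that the Dicer enzyme DCL3 cuts to 24 nt. Argonaute proteins of the AGO4 group carry these small interfering RNAs (siRNAs) to transcripts of polymerase V, and the methyltransferase DRM2 then methylates the DNA. The usual sources are transposons and repeats, and a gene can become a source where a repeat lies in it or beside it. Pollen holds a vegetative cell, whose heterochromatin is loosened, and 2 sperm cells. In whole grains, fewer cells of a type and less RNA per cell cannot be told apart.

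The genes with most 24-nt reads were themselves repeats. AT2G08986, AT1G40104 and AT2G07981, annotated as uncharacterized protein-coding genes, held 64.5% of all 24-nt reads of the 60 genes. AT2G08986 spans chr2:3618058-3626460 on the plus strand with 46 exons, AT2G07981 is its neighbour at chr2:3614986-3617716 (plus strand, 16 exons), and AT1G40104 lies at chr1:15081952-15085893 (plus strand, 22 exons). All positions and sequences are from the RefSeq genome and annotation of build TAIR10.1, found by locus tag, since the count files give no coordinates. Each of the 3 genes matched itself best when shifted by 178 bp, the length of the satellite unit of Arabidopsis centromeres. In AT2G08986, AT1G40104 and AT2G07981, 76.8%, 70.6% and 78.1% of bases equalled the base 178 bp further on. These values cover the whole gene without gaps and are not the identity of aligned units. One unit of each is printed to show the repeat, cut at the same point, with capitals at the 24 positions where the 3 units were not all alike.
AT2G08986, chr2:3618395-3618572, plus strand: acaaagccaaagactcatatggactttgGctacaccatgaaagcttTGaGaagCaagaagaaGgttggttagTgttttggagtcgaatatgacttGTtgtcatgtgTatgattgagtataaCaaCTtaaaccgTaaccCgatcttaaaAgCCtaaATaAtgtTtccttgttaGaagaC
AT1G40104, chr1:15082112-15082289, plus strand: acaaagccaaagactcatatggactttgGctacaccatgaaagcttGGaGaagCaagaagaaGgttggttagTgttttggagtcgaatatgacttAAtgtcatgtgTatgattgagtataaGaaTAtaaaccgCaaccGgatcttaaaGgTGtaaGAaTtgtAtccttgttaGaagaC
AT2G07981, chr2:3615670-3615847, plus strand: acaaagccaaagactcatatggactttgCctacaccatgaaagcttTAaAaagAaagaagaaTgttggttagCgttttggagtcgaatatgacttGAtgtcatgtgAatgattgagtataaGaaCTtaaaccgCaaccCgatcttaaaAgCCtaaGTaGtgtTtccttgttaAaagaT

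The printed units were 91.6% identical between AT2G08986 and AT1G40104, 92.1% between AT2G08986 and AT2G07981, and 88.8% between AT1G40104 and AT2G07981. Each unit was picked to start with the most frequent short word of these genes and to be followed by it 178 bp on. Part of the identity is thus fixed by that choice, and a single unit per gene does not measure how alike the arrays are. Of the 24-base words in the exons of these genes, 86.4%, 84.2% and 83.5% in AT2G08986, AT1G40104 and AT2G07981 occurred more than once in the nuclear genome, some of them 532 times. The sources used here do not give how reads with several matching places were counted. A read on these genes may come from other copies of the satellite or be counted at several of them. A further gene with the same shift, AT4G05612, fell just short of the rule, with 288 of its 724 reads (39.8%) at 24 nt; it was picked out after its values were seen.

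AT1G25025, an uncharacterized gene of 777 bp at chr1:8800808-8801584 on the plus strand, was a second kind of tandem array, with a unit of 78 bp. A pair of neighbouring units is printed because they differ at a single position, in capitals.
AT1G25025 unit 1, chr1:8800874-8800951, plus strand: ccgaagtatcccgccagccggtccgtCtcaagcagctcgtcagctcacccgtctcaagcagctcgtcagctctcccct
AT1G25025 unit 2, chr1:8800952-8801029, plus strand: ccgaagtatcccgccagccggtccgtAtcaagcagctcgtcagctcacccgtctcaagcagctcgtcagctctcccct

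Every 24-base word of its exon occurred more than once in the genome. AT3G22142, of the lipid-transfer and seed storage albumin family, repeated at 60 bp (61.5% of bases equal to the base 60 bp further on). Together 5 of the 55 members with an annotated sequence (9.09%) were tandem repeats with at least 60% identity at such a shift, against 4 of 4052 other nuclear genes with 100 or more reads (0.0987%). The share of repeated exon words was higher too, at a median of 11.9% in the members and 0.906% in those other genes. Repeats were no condition of membership, however. Over 50% of the exon words were repeated in 11 of 55 members and in 665 of 4052 other genes (16.4%), and 8 members had no repeated exon word. These shares are descriptions, with no test.

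Most members had a transposon beside them or within them in the order of the rows. The rows of the files follow the order of the genome, with 27900 of 27974 neighbouring gene pairs in the order of their TAIR10.1 starts, so transposons beside or between the exon-like segments of a gene can be read from that order. A transposon row lay between or directly next to the segments of 50 of 60 members (83.3%), against 41.0% of 4061 other nuclear genes with 100 or more reads. In 34 of the 50 it was next to the gene only. Distances were not measured, so a transposon in the next row may lie far from the gene. A transposon row stood between segments in 16 members (26.7%), against 4.14% of the other genes. In some of them, among these AT4G16900, AT4G08760, AT1G34400 and AT2G05360, the same transposon also had the row before or after the gene, so it reached past the gene, and a transposon's reads below are summed over all its rows. AT4G08760, an uncharacterized gene (chr4:5584739-5591133, minus strand), had rows of 3 transposons between its segments, one of which, AT4TE23410, had 1158 24-nt reads in all. AT4G16900, a disease resistance gene of the TIR-NBS-LRR class next to SNC1 (chr4:9511859-9516688, minus strand), had a row of AT4TE42950 between its segments, a transposon with 735 24-nt reads in all. HAK5, which encodes a high-affinity potassium transporter (chr4:7796782-7802251, minus strand), had rows of 4 transposons between its segments, but these had at most 9 24-nt reads each, against 290 on the exon segments of HAK5.

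**Figure D1:**
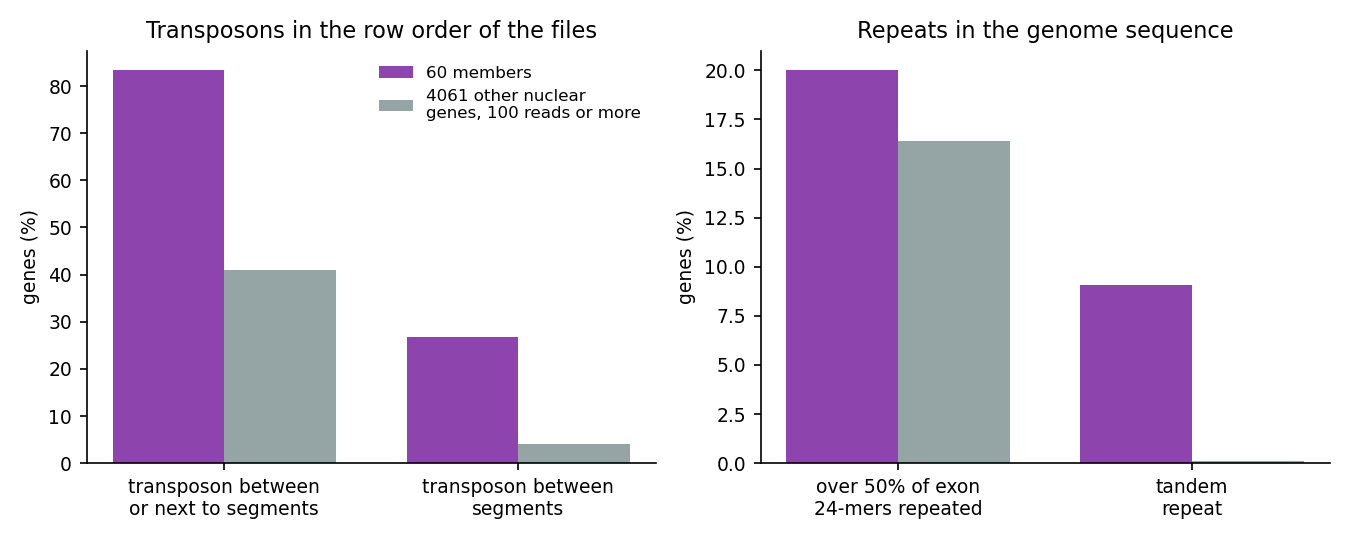
Genome context of the members (purple, left bars) and of other nuclear genes with 100 or more reads (grey, right bars), in percent of genes. Left, transposon rows between or next to a gene's segments (60 members, 4061 other genes); right, genes with over 50% of exon 24-base words repeated in the genome and genes that are tandem repeats (55 members and 4052 other genes with annotated sequence). The transposon and tandem repeat bars stand apart (83.3% against 41.0%, and 9.09% against 0.0987%), those for repeated words less so (11 of 55 against 665 of 4052).

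By annotation, 45 members were protein-coding genes, 6 were transcribed pseudogenes, 2 non-coding RNAs, 1 a miRNA precursor and 1 a small nucleolar RNA (snoRNA), and 5 IDs were not in the annotation used. They lay on all chromosomes, with 17, 14, 11, 10 and 8 on chromosomes 1 to 5. Sorted by the words of their RefSeq products, 15 were uncharacterized, 4 zinc finger or transcription factor genes, 3 kinases, 2 F-box genes, 2 cytochromes P450, 1 a disease resistance gene, 1 a defensin-like gene and 17 had another named product. The rest were the pseudogenes, the non-coding RNAs and the IDs outside the annotation. Where a gene had several segments, its 24-nt reads mostly fell on one: of 36 such members, 28 had over 50% of their 24-nt reads in a single segment. In AT3G44780, a cysteine proteinase gene (chr3:16321601-16322604, minus strand), one of 4 segments held 98.3% of them, and in AT4G24300, of the separase peptidase family (chr4:12598980-12600213, minus strand), 97.6% fell on one of 4. The 3 satellite genes were the opposite, with at most 6.29% (AT2G08986), 9.50% (AT1G40104) and 13.8% (AT2G07981) on any one segment.

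Pairs of members shared sequence and may share reads. AT1G29620 and AT1G32720, both of the cytochrome c oxidase VIb family, shared 212 24-base words, or 65.0% and 48.5% of the exon words of each. AT4G08760 shared 84 words with EDA34 (AT4G00140, an EF-hand protein gene) and 39 with AT1G34400. Members in such a pair are not independent.

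The 24-nt share of a member was 40% at the lowest, 43.9% at the median and 89.4% at the highest, and its read total 100 at the lowest, 174.5 at the median and 14519 at the highest. The highest shares were those of AT2G24513 (89.4%), an ID not in the annotation used, AT4G24300 (75.4%), AT3G44780 (74.2%) and MIR848 (74.2%). They were followed by AT2G05360, of the F-box associated family (64.2%), the pseudogene AT3G42724 (60.2%), AT2G24340, a DNA-binding transcription factor gene (59.9%), and SOT18 (55.1%), a sulfotransferase of glucosinolate synthesis. Just inside the share threshold stood AT4G07526 (44 of 110 reads) and AT4G16900 (393 of 979), and just outside AT2G04870 (128 of 321) and AT3G29796 (174 of 437). Just inside the read threshold stood AT2G11005 and AT4G00130 with 100 reads each, and just outside AT1G38630 with 99 and RLP5 with 98.

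The members' other reads were mostly 21 to 23 nt long. Averaged over libraries, 24-nt reads were 43.2% ± 1.996 of the members' reads in paps1-3 and 47.1% ± 9.02 in WT (SD, n = 3 each), 23-nt reads 14.7% ± 0.301 in paps1-3 and 16.1% ± 0.179 in WT, and 22-nt reads 18.6% ± 1.41 in paps1-3 and 14.3% ± 2.16 in WT. Reads of 25 nt or more were rare, at 0.873% ± 0.0705 in paps1-3 and 1.18% ± 0.405 in WT for 25 nt. In the 4061 other nuclear genes with 100 or more reads, 24-nt reads were 7.34% ± 1.01 of reads in paps1-3 and 7.42% ± 1.70 in WT. In the 589 transposons that met the same thresholds they were 39.8% ± 2.52 in paps1-3 and 46.2% ± 8.29 in WT. The 4061 genes took 76.6% of counted reads in paps1-3 and 81.8% in WT, with genes of ribosomal and other structural RNA among them. Their pooled profile is weighted by reads and need not be that of a typical gene.

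**Figure D2:**
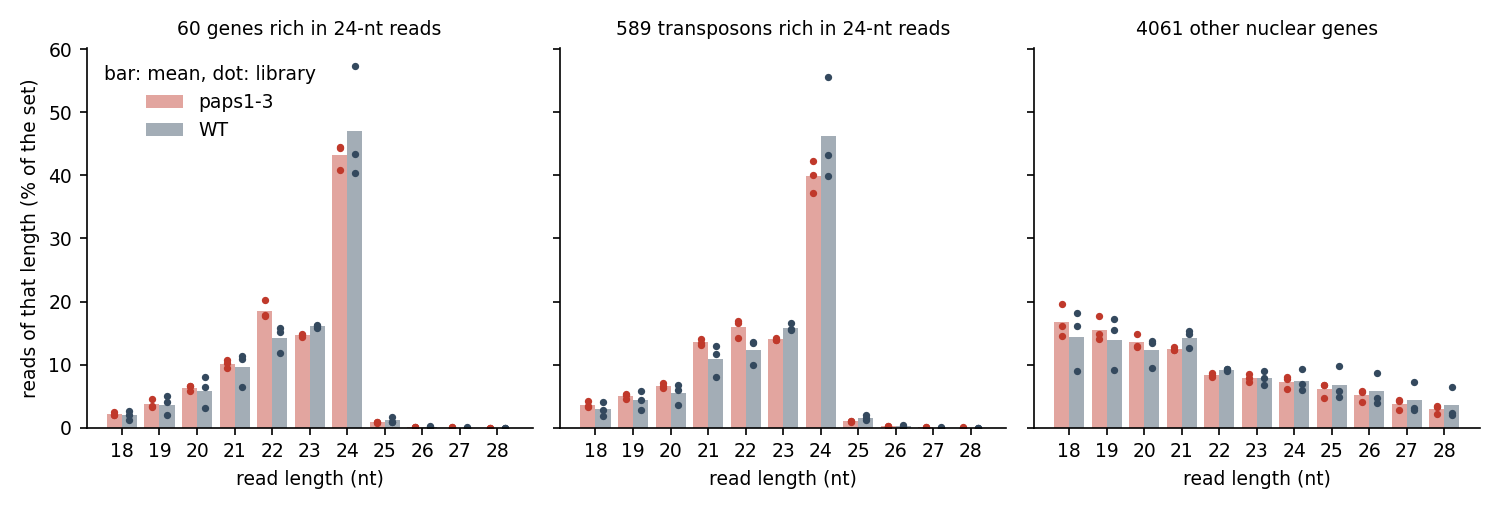
Read lengths (x axis, nt) as a percentage of all reads of a set of features (y axis), for the 60 members, 589 transposons that met the same thresholds and 4061 other nuclear genes. The other genes include those of ribosomal and other structural RNA. Bars are means and dots the 3 libraries of a genotype, with paps1-3 in red on the left and WT in blue-grey on the right; the dot high above its group at 24 nt is WT 15, with 57.3% of the members' reads.

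The members were chosen on their summed reads, of which WT holds more. The pooled values in this paragraph and the next therefore describe the chosen genes and are no test of a difference between genotypes. As a share of all counted reads, the members were lower in paps1-3 than in WT in all 3 isolations. They took 0.0394%, 0.0558% and 0.0586% of counted reads in paps1-3 16, 20 and 26, against 0.0898%, 0.116% and 0.129% in WT 15, 19 and 25. Their 24-nt reads came to 175, 228 and 259 reads per 1000000 counted reads (RPM) in paps1-3 16, 20 and 26, against 515, 502 and 520 RPM in WT 15, 19 and 25. The genotypes did not overlap on either measure. The mean was 221 ± 42.6 RPM in paps1-3 and 512 ± 9.28 RPM in WT (SD, n = 3 each), a ratio of 0.431. Within the isolations the ratio was 0.340 (16 over 15), 0.455 (20 over 19) and 0.499 (26 over 25). The size of the difference depended on the denominator. Of all counted reads the members took 0.0512% in paps1-3 and 0.111% in WT, a ratio of 0.460. Of nuclear reads outside structural RNA genes they took 0.325% ± 0.0319 in paps1-3 and 0.418% ± 0.0514 in WT (SD, n = 3 each), a ratio of 0.777, still without overlap. Rows of joined IDs were all kept in that denominator, whichever genes they named. On that denominator the 3 satellite genes had 0.225% in paps1-3 and 0.276% in WT, a ratio of 0.816, and their groups overlapped, while the other 57 members had 0.0995% in paps1-3 and 0.142% in WT, a ratio of 0.700, with no overlap. The 589 transposons that met the same thresholds had 1.209% in paps1-3 and 1.839% in WT, a ratio of 0.657, also with no overlap.

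The satellite genes and the other members were both lower on this scale. The 3 satellite genes had 149 ± 32.0 RPM of 24-nt reads in paps1-3 and 325 ± 16.1 in WT, a ratio of 0.459, and the other 57 members 71.9 ± 11.3 in paps1-3 and 188 ± 12.04 in WT, a ratio of 0.383. All transposons together had 7281 ± 532 RPM of 24-nt reads in paps1-3 and 16080 ± 1214 in WT, a ratio of 0.453. Set against them, the satellite genes had 20.3 ± 2.94 24-nt reads per 1000 24-nt transposon reads in paps1-3 and 20.3 ± 2.502 in WT. The other 57 members had 8.76, 10.5 and 10.2 in paps1-3 16, 20 and 26, against 11.6, 11.6 and 11.9 in WT 15, 19 and 25, and the groups did not overlap. Their ratio of means was 0.8425. The 589 transposons that met the same thresholds were lower too, also without overlap. They had 103.2 ± 13.7 in paps1-3 and 138.5 ± 5.225 in WT, a ratio of 0.745. The members had RPM ratios of 0.488, 0.443, 0.478, 0.477, 0.592, 0.418 and 0.431 at 18, 19, 20, 21, 22, 23 and 24 nt. The 22-nt value was the highest of these, and the 24-nt value lay between those at 19 and 23 nt. The 589 transposons had 0.473, 0.441, 0.4665, 0.480, 0.506, 0.3455 and 0.340 at the same lengths, lowest at 23 and 24 nt. The 24-nt share of the members' own reads overlapped between genotypes. Its ratio was 0.775 (16 over 15), 0.942 (20 over 19) and 1.096 (26 over 25).

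Single genes were tested with edgeR's quasi-likelihood test across all features, with Benjamini-Hochberg adjustment over the whole table. Results are given with 2 scalings. TMM sets the libraries so that most features balance, and total-read scaling divides by all counted reads. The median log2 fold change of all 13464 features tested at 18 to 28 nt was −0.15 with TMM and −0.94 with total reads, so changes are read against these medians.

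Over 18 to 28 nt, all 60 members entered the test. With TMM, 10 members fell (16.7%), against 3.99% of all features tested, and 1 rose, against 14.3% of all features. The median of the members was −0.40. The 589 transposons that met the same thresholds had 95 lower (16.1%) and 1 higher, with a median of −0.50, and 4045 tested other nuclear genes 194 lower (4.80%) and 1310 higher. With total reads, 47 members fell (78.3%, against 40.3% of all features) and 1 rose (against 6.02%), with a median of −1.19. With the isolation as a block and TMM, 17 fell and 1 rose, against 8.57% lower and 18.8% higher of all features. Without paps1-3 26, 6 fell, a count with no share of all features beside it.

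At 24 nt, 37 members had enough reads for the count filter and 23 did not. The members were chosen on these same 24-nt reads, of which WT holds more, and more of them reached 40% in WT than in paps1-3 (given below by genotype). The counts that follow, and those over 18 to 28 nt, therefore describe the members, and nothing is read from them against features that were not chosen this way. With TMM, 9 of the 37 fell and 1 rose; of all 3593 features tested, 6.23% were lower and 16.8% higher, with a median of −0.09. With total reads 32 fell and 1 rose, against 62.3% lower and 5.82% higher of all features, whose median was −1.05. Fitted without a count filter, all 60 entered and the TMM counts were again 9 and 1, against 0.492% lower and 1.47% higher of all 44938 features. Without paps1-3 26 the lower calls with TMM were 5, again with no share of all features beside them. In RPM, the mean of 24-nt reads was lower in paps1-3 than in WT in 59 of the 60 members, all but U60.1F, and the median member stood at 38.7% of its WT mean. Most features were lower on that scale: of the 3593 tested at 24 nt, 3006 had a negative log2 fold change with total reads. The 24-nt reads of 48 of 60 members were lower in every paps1-3 library than in any WT library, against 45.3% of the 8568 features with 100 or more reads and a 24-nt read.

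**Figure D3:**
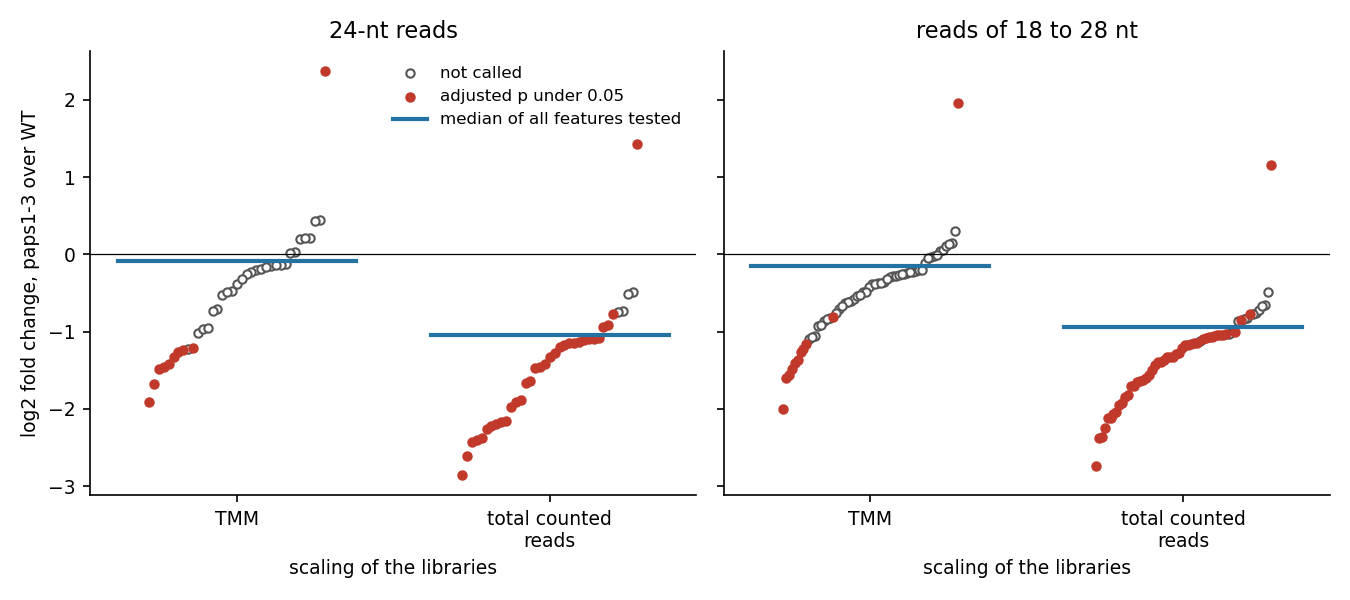
Log2 fold changes of the members, paps1-3 over WT (y axis), at 24 nt (left, 37 members) and over 18 to 28 nt (right, 60 members), with TMM and with total-read scaling (x axis), each sorted by size. Filled red points passed an adjusted p of 0.05, open points did not, and the blue line is the median of all features tested. The point far above the others is U60.1F. Total-read scaling shifts members and blue line together.

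The satellite genes were close to the median of all features. AT2G08986 had 53.4, 75.2 and 90.1 RPM of 24-nt reads in paps1-3 16, 20 and 26, against 160.6, 157 and 164 RPM in WT 15, 19 and 25. AT1G40104 had 42.6, 54.1 and 62.9 RPM in paps1-3 16, 20 and 26, against 103 RPM, 110.3 RPM and 127.5 RPM in WT 15, 19 and 25. AT2G07981 had 20.2, 21.4 and 27.1 RPM in paps1-3 16, 20 and 26, against 51.1, 49.3 and 51.5 RPM in WT 15, 19 and 25. The groups did not overlap in any of the 3. With TMM their 24-nt log2 fold changes were −0.20 (SE 0.18), −0.15 (SE 0.20) and −0.19 (SE 0.21) for AT2G08986, AT1G40104 and AT2G07981, none called (edgeR adjusted p = 0.486, 0.639 and 0.573). With total reads they were −1.14, −1.09 and −1.14 and all called (edgeR adjusted p = 0.00259, 0.00306 and 0.00257).

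The genes called lower were a mix of pseudogenes, uncharacterized genes and genes of known families. Of the 10 that fell over 18 to 28 nt, 8 had a transposon row between or next to their segments, near the share among all members, and 8 also fell at 24 nt. The pseudogene AT3G42724 (chr3:14841392-14842638, plus strand), which lies next to the member AT3G42723, fell most. It had 2, 6 and 3 24-nt reads in paps1-3 16, 20 and 26, against 46, 33 and 25 in WT 15, 19 and 25, with no overlap. Its log2 fold change at 24 nt was −1.92 (SE 0.43, edgeR adjusted p = 0.00439), and without paps1-3 26 the call was lost (edgeR adjusted p = 0.0978, with a range of 0.000285 to 0.0978 over its 11 alternatives other than total reads, the set used for each range here).

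AT2G05360, of the F-box associated family and with rows of 2 transposons between its segments, had 3, 4 and 4 24-nt reads in paps1-3 16, 20 and 26, against 29, 20 and 37 in WT 15, 19 and 25. It fell by 1.67 on the log2 scale (SE 0.46, edgeR adjusted p = 0.0166), and the call went without paps1-3 16, paps1-3 26 or WT 25 (edgeR adjusted p = 0.0608, 0.163 and 0.0584) and with DESeq2 (adjusted p = 0.107), with a range of 0.00133 to 0.163 over its alternatives. Over 18 to 28 nt it fell by 1.36 (SE 0.37, edgeR adjusted p = 0.0232), and that call was lost without WT 15, WT 25, paps1-3 16 or paps1-3 26 (edgeR adjusted p = 0.0578, 0.104, 0.0935 and 0.129) and with DESeq2 (adjusted p = 0.0857), with a lowest value of 0.00697 over its alternatives. AT1G34400, an uncharacterized gene with rows of AT1TE40940 between and after its segments, had 0.505, 1.08 and 0.806 RPM of 24-nt reads in paps1-3 16, 20 and 26, against 3.94, 4.30 and 4.40 RPM in WT 15, 19 and 25. It fell by 1.49 (SE 0.33, edgeR adjusted p = 0.00436), and leaving out paps1-3 26 ended the call (edgeR adjusted p = 0.0624, with a lowest value of 0.000682 over its alternatives). In neither gene did the genotypes overlap.

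The pseudogene AT3G30415 (chr3:12039061-12041042, plus strand) stood between transposon rows. It had 0.884, 1.98 and 1.21 RPM of 24-nt reads in paps1-3 16, 20 and 26, against 7.30, 7.17 and 6.44 RPM in WT 15, 19 and 25, and fell by 1.46 (SE 0.30, edgeR adjusted p = 0.00266). AT3G42550, an aspartyl protease gene (chr3:14665728-14669135, minus strand) whose 24-nt reads were spread over 12 segments, had 1.26, 1.44 and 1.21 RPM in paps1-3 16, 20 and 26, against 7.30, 6.25 and 6.66 RPM in WT 15, 19 and 25, and fell by 1.42 (SE 0.29, edgeR adjusted p = 0.00209). AT4G08760 had 1.52, 2.88 and 3.12 RPM in paps1-3 16, 20 and 26, against 12.1, 11.8 and 9.88 RPM in WT 15, 19 and 25, and fell by 1.22 (SE 0.27, edgeR adjusted p = 0.00425). None of these 3 genes overlapped between genotypes. Their 24-nt calls held when any one library was left out and with DESeq2; over 18 to 28 nt AT3G30415 was not called without paps1-3 26 (edgeR adjusted p = 0.0585, with a lowest value of 0.000288 over its alternatives).

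The tandem array AT1G25025 had 0.758, 3.96 and 1.21 RPM of 24-nt reads in paps1-3 16, 20 and 26, against 11.5, 6.66 and 6.98 RPM in WT 15, 19 and 25. The groups did not overlap, but the spread in paps1-3 was wide. At 24 nt it fell by 1.24 (SE 0.42, edgeR adjusted p = 0.0462), but not without paps1-3 16 or 26, without WT 15, 19 or 25, with RLE factors, with a stricter count filter and with DESeq2 (edgeR or DESeq2 adjusted p from 0.0556 to 0.345). Over 18 to 28 nt it fell by 1.40 (SE 0.30, edgeR adjusted p = 0.00591), and leaving out paps1-3 26 ended that call (edgeR adjusted p = 0.0642, with a lowest value of 3.07e-05 over its alternatives). AT1G25112, an annotated gene with a repeat of the same unit length, was not a member, since 37.0% of its reads were 24 nt long; it was picked out after its values were seen.

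CYP86A7, a cytochrome P450 of the family of fatty acid hydroxylases, and AT1G06148, an uncharacterized gene, were called over 18 to 28 nt only. At 24 nt CYP86A7 had too few reads to be tested, and AT1G06148 was not called (edgeR adjusted p = 0.0572, and 0.0252 with the isolation as a block). CYP86A7 had 5, 2 and 8 reads of 18 to 28 nt in paps1-3 16, 20 and 26, against 24, 35 and 37 in WT 15, 19 and 25. It fell by 1.56 (SE 0.39, edgeR adjusted p = 0.0144), but not without paps1-3 20 or 26 (edgeR adjusted p = 0.0631 and 0.075) and with DESeq2 (adjusted p = 0.0733), with a lowest value of 0.00615 over its alternatives. AT1G06148 fell by 0.82 (SE 0.26, edgeR adjusted p = 0.0499), at the edge of the threshold, and the call was lost without any one of the 6 libraries, with RLE factors, without a count filter and with DESeq2 (edgeR or DESeq2 adjusted p from 0.0548 to 0.21). Both genes lie outside the rule for named genes and are given because they complete the 10.

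The 2 members of annotated small RNA classes moved in opposite directions. MIR848 (AT5G13887, chr5:4479397-4479591, minus strand) is a miRNA precursor in an intron of AT5G13890. Its annotated mature miRNA is 22 nt long, and it is printed with the seed (bases 2 to 8) in capitals, because most reads of the locus did not have its length.
miR848, chr5:4479448-4479469, minus strand: uGACAUGGgacugccuaagcua

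Of the 236 reads on MIR848, 74.2% were 24 nt and 9.75% were 22 nt long. It had 4, 6 and 15 24-nt reads in paps1-3 16, 20 and 26, against 54, 56 and 40 in WT 15, 19 and 25, with no overlap in RPM. At 24 nt it fell by 1.32 (SE 0.33, edgeR adjusted p = 0.00849), and leaving out paps1-3 16 ended the call (edgeR adjusted p = 0.0751, with a lowest value of 0.00191 over its alternatives). Over 18 to 28 nt it was not called (−0.93, SE 0.30, edgeR adjusted p = 0.0502; 0.0269 with the isolation as a block). Of 13 miRNA loci tested at 24 nt, 2 fell and 1 rose. AT2G24513, the ID with the highest 24-nt share, fell by 1.26 at 24 nt (SE 0.34, edgeR adjusted p = 0.0142), with 8, 3 and 18 24-nt reads in paps1-3 16, 20 and 26, against 73, 44 and 49 in WT 15, 19 and 25. That call was lost without paps1-3 16 or 20 (edgeR adjusted p = 0.0653 and 0.0863) and with DESeq2 (adjusted p = 0.0734), with a lowest value of 0.00157 over its alternatives. Over 18 to 28 nt it fell by 1.48 (SE 0.35, edgeR adjusted p = 0.0108), but not without paps1-3 20 (edgeR adjusted p = 0.0603, with a lowest value of 0.000933 over its alternatives).

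U60.1F (AT5G52471) was the one member that rose. It is a snoRNA of the box C/D type, the guides of ribose methylation in ribosomal RNA, and lies in an intron of FIB1, the gene of fibrillarin, the methyltransferase that these guides direct. The sequence is printed with a TGATGA (the box C motif) and the last CTGA (the box D motif) in capitals.
U60.1F, chr5:21295736-21295809, plus strand: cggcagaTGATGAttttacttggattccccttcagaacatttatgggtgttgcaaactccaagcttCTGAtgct

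It had 19, 7 and 39 24-nt reads in paps1-3 16, 20 and 26, against 7, 11 and 11 in WT 15, 19 and 25. In RPM these were 2.40, 1.26 and 3.93 in paps1-3 16, 20 and 26, against 0.690, 1.13 and 1.18 in WT 15, 19 and 25, so the lowest paps1-3 library was just above the highest WT library. Its log2 fold change at 24 nt was 2.37 with TMM (SE 0.38, edgeR adjusted p = 0.000368) and 1.42 with total reads (edgeR adjusted p = 0.00642; not called without paps1-3 26). It shared this direction with its class, since 19 of 20 snoRNA genes tested at 24 nt were higher with TMM and 11 with total reads. A further 24.2% of its reads were 23 nt long and 14.5% were 25 nt, with 0.538% at 21 nt and 4.30% at 22 nt. At 25 nt the members together had 0.873% in paps1-3 and 1.18% in WT.

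Other members with many 24-nt reads did not pass the test with TMM. AT3G44780 had 9.35, 9.71 and 11.3 RPM in paps1-3 16, 20 and 26, against 16.8, 18.2 and 16.7 RPM in WT 15, 19 and 25, with no overlap. Its log2 fold change was 0.19 with TMM (SE 0.26, edgeR adjusted p = 0.647) and −0.77 with total reads (edgeR adjusted p = 0.0291), so its sign turned with the scaling. AT4G16900 likewise had 0.22 with TMM (SE 0.29, edgeR adjusted p = 0.647) and −0.73 with total reads (edgeR adjusted p = 0.0553). Both values of AT3G44780 and AT4G16900 lay above the median of all features on the same scale.

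HAK5 had 2.27, 5.21 and 2.72 RPM of 24-nt reads in paps1-3 16, 20 and 26, against 10.2, 7.38 and 4.40 RPM in WT 15, 19 and 25, and the groups overlapped. Its log2 fold change was −0.16 with TMM (SE 0.33, edgeR adjusted p = 0.775) and −1.14 with total reads (edgeR adjusted p = 0.0162). AT2G01023, a gene of 120 bp at chr2:9648-9767 on the minus strand, had 2.02, 3.24 and 3.43 RPM in paps1-3 16, 20 and 26, against 7.99, 9.43 and 9.77 RPM in WT 15, 19 and 25 (−0.71 with TMM, SE 0.27, edgeR adjusted p = 0.0788, and 0.0171 with the isolation as a block). AT2G33006, an ID not in the annotation used, had −0.13 with TMM (SE 0.26, edgeR adjusted p = 0.775). SOT18, AT2G24340 and AT4G24300 had −0.38, −0.52 and 0.03 (edgeR adjusted p = 0.441, 0.271 and 0.968), the last turning to −0.92 and a call with total reads.

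**Figure D4:**
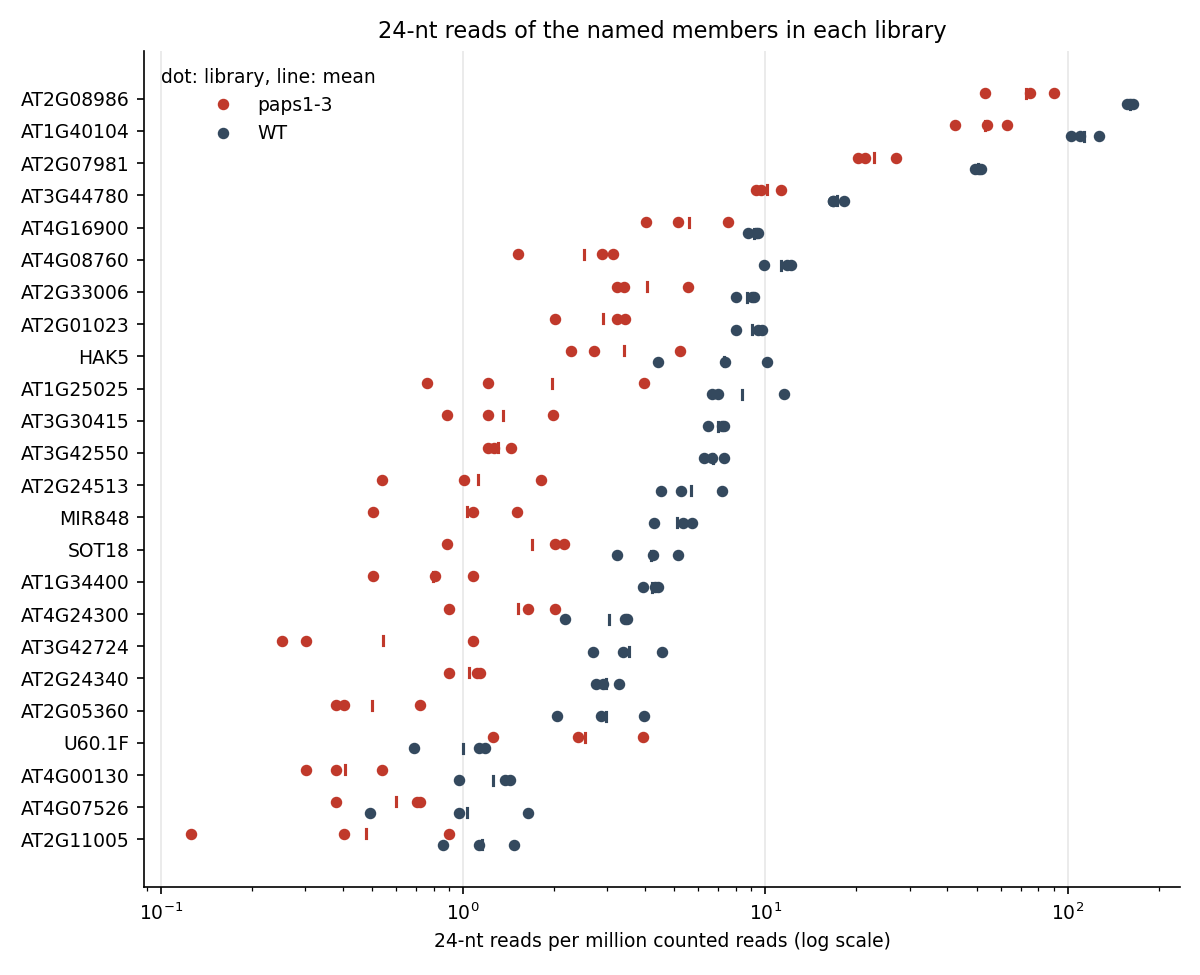
24-nt reads in RPM (x axis, log scale) of the named members in each library, sorted by 24-nt reads. Dots are libraries and short lines means, with paps1-3 in red above WT in blue-grey. The paps1-3 dots lie left of the WT dots in most genes; HAK5, AT4G07526 and AT2G11005 overlap, and U60.1F is the gene with paps1-3 to the right.

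The balance of lengths within a gene does not depend on scaling. In the pooled reads of a genotype, 42 members had a 24-nt share of at least 40% in paps1-3 and 54 in WT, where the WT libraries hold more of the reads that chose the members. By library the median share was 44.7%, 40% and 44.95% in paps1-3 16, 20 and 26, against 56.6%, 43.9% and 40.9% in WT 15, 19 and 25. WT 15 stood apart, and the WT range without it lay within that of paps1-3. This was not particular to the members. Over all counted reads, 24-nt reads came to 103498 RPM in WT 15, against 79468 in WT 19 and 70946 in WT 25. Only 7 members kept 40% in every library.

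Of the 29 members with at least 10 reads in every library, none changed its odds of a 24-nt read in edgeR's quasi-likelihood test of 24-nt against other reads, and 0 were under an unadjusted p of 0.05; no other tool was run on the shares. Of 6073 features tested, 0.461% were lower and 0.198% higher. The odds ratio, paps1-3 over WT, ran from 0.578 to 1.49 over these members with a median of 0.893. For AT2G08986 it was 0.849 (95% interval 0.587 to 1.23), for AT3G44780 1.01 (0.618 to 1.65) and for HAK5 0.884 (0.451 to 1.74), so changes of this size could not be told from none. With at least 5 reads in every library 53 members were tested, none was called (against 0.224% lower and 0.0815% higher of all features) and 1 was under an unadjusted p of 0.05. It was MIR848, picked out after its value was seen, with an odds ratio of 0.278 (95% interval 0.104 to 0.740, edgeR adjusted p = 0.524).

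**Figure D5:**
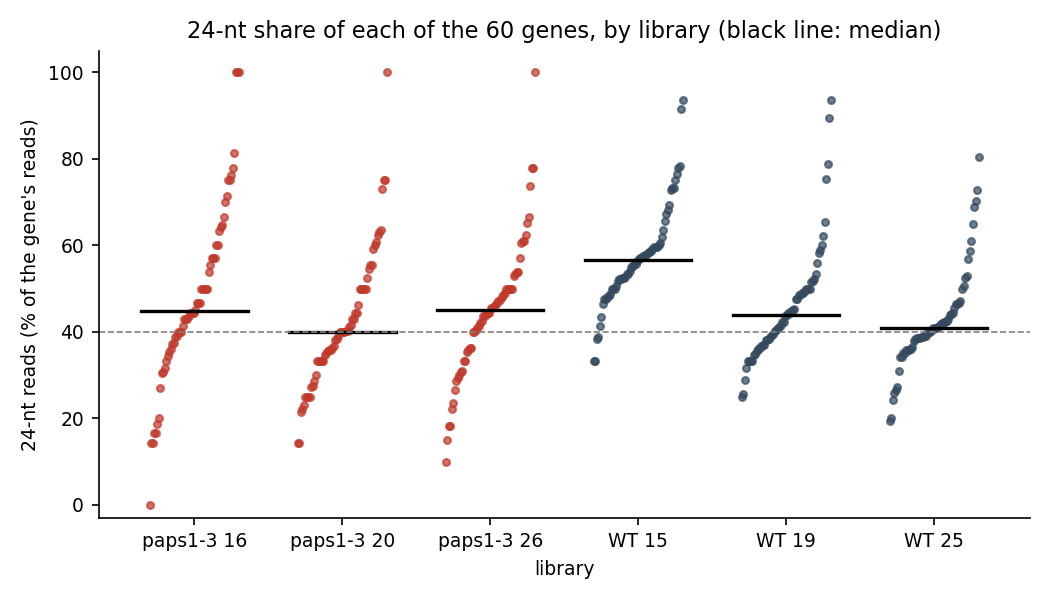
The 24-nt share of each of the 60 members (y axis, percent of the gene's reads) in each library (x axis), sorted within a library, with paps1-3 in red on the left and WT in blue-grey on the right. Black lines are medians and the dashed line is the 40% threshold, which was applied to the summed reads; the medians run from 40% to 56.6%, highest in WT 15.

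None of 31 genes of the RNA-directed DNA methylation machinery and none of 15 genes known as siRNA targets or imprinted genes was a member. Members were 60 of all 28395 nuclear genes, so lists of this size may well hold none. Of the machinery genes, 4 had 100 reads or more, and their 24-nt shares were 4.09% to 8.33%. Of the 11 tested over 18 to 28 nt, none changed with TMM (0 at an unadjusted p of 0.05, and 0 called by DESeq2), and 3 fell with total reads, or 3 of 11 against 40.3% of all features: MET1, the maintenance methyltransferase gene (−1.17, edgeR adjusted p = 0.0134), AGO9 (−1.30, edgeR adjusted p = 0.0304) and NRPE1, of polymerase V (−1.26, edgeR adjusted p = 0.0303). MET1, AGO9, DDM1 (a chromatin remodeller) and ROS1 (a DNA demethylase) had most 24-nt reads in that list, with 11 each over the 6 libraries. Of the siRNA targets, 3 had 100 reads or more. SNC1 had most 24-nt reads in that list, 39 of its 180 reads (21.7%), followed by AGL36 with 16, ROS1 with 11 and MPC with 8. Of the 4 tested, none was called by edgeR with either scaling or by DESeq2, and 0 were under an unadjusted p of 0.05 with TMM.

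Markers of cell types gave no member either, as may be so for any short list. Summed over 4 genes, vegetative-cell markers had 800.3 to 1240 RPM in paps1-3 libraries and 1206 to 1441 in WT libraries, and 7 sperm-cell markers 10.11 to 15.8 RPM in paps1-3 and 26.7 to 29.8 in WT. Most vegetative-marker reads were on VGD1, with 52272 over the 6 libraries, against 7933 on PPME1, 1921 on PTEN1 and 166 on VEX1. Tapetum markers (7 genes) had 1.21 to 1.80 RPM in paps1-3 and 1.74 to 3.35 in WT, and leaf markers (3 genes) 2.02 to 5.74 in paps1-3 and 8.88 to 10.8 in WT. No marker was at 0 in all libraries. With TMM, 2 of the 4 vegetative markers rose and 1 fell. Of 5 tested sperm markers 1 fell, and none of the 3 leaf markers was called. Among all features, 14.3% were higher and 3.99% lower with TMM. With total reads the vegetative counts were again 2 and 1, while 2 sperm markers (DAZ2 and DAZ3) and 1 leaf marker (CAB1) fell. Among all features, 6.02% were higher and 40.3% lower with total reads. Of the sperm markers DAZ3 had most reads, 535 over the 6 libraries, followed by GEX1 with 254 and DAZ2 with 134. With TMM, DAZ2 and DAZ3 had negative log2 fold changes (−1.95 and −0.57). HTR10, GEX1 and HAP2 had positive ones (0.20, 0.41 and 0.58), none called. The sperm and leaf sums were lower in paps1-3, as the members were in RPM, and their part in the members' values was not tested. Most features were lower on that scale, with a median log2 fold change of −0.94 over all 13464 features. The sums count small RNA reads on the marker genes and do not measure their transcripts.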

How the data were processed

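The authors deposited whole-number counts of reads per annotated segment; per the file headers, each length of 18 to 28 nt has its own column. The submitters' processing notes name the tools bedtools, BWA, Trimmomatic and SAMtools without versions, and the build TAIR10. The sources used here do not say how strand or reads with several matching places were treated. The members and lists were chosen with earlier results of these data known.

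Counts were summed per ID. Genes were tested with edgeR 4.0.16 (R 4.3.3): robust quasi-likelihood test, TMM factors, filterByExpr, no block, Benjamini-Hochberg adjustment over all features, calls at 0.05. SEs are the log2 fold change over the root of F. The 24-nt share was tested as 24-nt against other counts within a library. The fits were tested on simulated data. Intervals and SDs cover these libraries only. Placement, repeats and sequences used RefSeq TAIR10.1 by locus tag; 24-base words were counted on both strands of the nuclear chromosomes. A gene was called a tandem repeat at 60% or more identity with itself at a shift of 20 to 500 bp.

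The labels state 3 paired isolations but not which libraries form a pair. Deviations from the genotype means correlated at 0.40, 0.24 and 0.23 for libraries 15 and 16, 19 and 20, and 25 and 26 (minimum 0.1), and at −0.29 to 0.12 for the other pairs, of which 20 and 25 reached 0.12, so adjacent numbers were taken as isolations for the blocked fit.

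Named were the 10 members with most 24-nt reads, the 8 with the highest share, up to 8 called lower and 8 called higher at 24 nt without overlap, those next to the thresholds, and from the 2 lists called genes and the 4 with most 24-nt reads. Alternatives were RLE factors, total-read scaling, DESeq2 1.42.0, no filter, a stricter filter (at least 10 counts in at least 3 libraries, mean CPM at least 1), the block, each library left out, other minima and length classes for the share (5 and 20 reads, 21 and 22 nt, 23 nt), and members chosen with libraries weighted equally. Variants of the total-read fit and values without the satellite genes were added after seeing the data. Python 3.11.15, pandas 2.3.3, numpy 2.4.6 and matplotlib 3.10.9 were used for tables and figures.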

Additional observations from a re-analysis of the deposited data

How the results depend on the processing

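Scaling moved the counts of members called lower most: with total reads they were 32 at 24 nt (9 with TMM) and 47 over 18 to 28 nt (10 with TMM). With the isolation as a block they were 17 over 18 to 28 nt with TMM; the block changed no other count by more than 1.5 times. Leaving out one library gave 5 to 12 lower at 24 nt and 6 to 9 over 18 to 28 nt with TMM, with the lowest counts without paps1-3 26. With total reads it gave 26 to 50 lower over 18 to 28 nt and 33 to 44 at 24 nt. Over 18 to 28 nt the count was 26 without paps1-3 16, 27 without WT 19 and 31 without WT 25. These counts have no share of all features beside them. They do not show whether members lost calls more than other features did. The single higher call, U60.1F, was kept under each alternative with TMM, but with total reads the count ran from 0 to 1 at both length settings, being 0 without paps1-3 26 at 24 nt and without paps1-3 26, WT 19 or WT 25 over 18 to 28 nt. AT3G44780 turned to −0.77 at 24 nt and −0.77 over 18 to 28 nt, and AT4G24300 to −0.92 at 24 nt, with total reads. No share call was made under any setting. Weighting libraries equally chose 53 members, 52 of them shared, with 8 lower at 24 nt and 9 over 18 to 28 nt. Another total left out single IDs of structural RNA genes and of organelles but kept all joined IDs. Of it the members took 0.325% in paps1-3 and 0.418% in WT, a ratio of 0.777 in place of 0.460. The satellite genes' groups overlapped on that total. Depth kept 23 members out of the 24-nt test.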

Other observations

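AT2G07981 and AT2G08986, and AT3G42723 and AT3G42724, were members in adjacent rows. AT3G42723, annotated for nucleotide binding, had 7, 10 and 9 reads of 18 to 28 nt in paps1-3 16, 20 and 26, against 41, 42 and 37 in WT 15, 19 and 25 (log2 −1.06, SE 0.34, edgeR adjusted p = 0.051, and 0.0218 with the isolation as a block). The further neighbours AT3G42722, an F-box pseudogene, and AT3G42725 had 12 and 71 reads over the 6 libraries, too few to enter the rule, with 24-nt shares of 58.3% and 38.03%. The genes that hold the intronic members had few reads of their own: AT5G13890, around MIR848, had 15 reads and FIB1, around U60.1F, 25 reads over the 6 libraries. These pairs and neighbours were picked out after their values were seen.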
